A study of Homo sapiens with 2 samples.

Results

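The genes described here form a module of 40 cell cycle genes, 14 that act mainly in S phase and 26 that act in G2 and mitosis, taken by symbol from a fixed list and found in both count tables among 36601 genes. The samples were 2 blood-generating heart-forming organoids (BG-HFOs) on day 14, labelled 32.7 and 33.10, both grown from the established human embryonic stem cell line hES3 NKX2.5-eGFP, which carries a fluorescent reporter in the heart muscle gene *NKX2-5*. Aggregates in Matrigel received WNT pathway modulators in 2 phases together with blood- and endothelium-inducing factors, and each organoid was dissociated on its own and gave 1 droplet library. The organoids are replicates of 1 condition and 1 cell line, so lineages within them were compared and no treatment was. The module was described in each lineage by its summed level, by the share of cell barcodes called cycling and by the balance of S-phase to G2/M transcripts.

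Cells copy their DNA in S phase and divide in mitosis after the gap phase G2. S-phase genes of this kind are transcribed mainly through E2F factors, which the retinoblastoma proteins hold back until cyclin-dependent kinases (CDKs) release them, whereas many G2/M genes are repressed in resting cells by the DREAM complex through a promoter element called CHR and are activated through CCAAT boxes and the factors B-MYB and FOXM1. In the embryo, blood progenitors and primitive red cells divide rapidly, heart muscle cells still divide while they contract, and megakaryocytes replicate DNA without completing division.

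The promoters of the module carried the motifs of both routes, and those of the members with the highest level over both libraries, among members with a promoter in the table, are shown with the motifs in capitals. RefSeq promoters (GRCh38.p14, from 250 bases before to 50 after the transcription start) were matched by symbol for 32 of the 40 members. The letters searched on both strands were TTTGAA or TTCGAA for CHR, CCAAT for the CCAAT box, and GCGGGAA or TTTGGCG for E2F. CHR letters were present in 16 of 21 G2/M promoters (76.2%) and 1 of 11 S-phase promoters (9.09%), against 16.6% of all 27305 promoters of the same length. E2F letters showed the reverse, with 9 of 11 S-phase promoters (81.8%), 3 of 21 G2/M promoters (14.3%) and 8.28% of all promoters. CCAAT letters were present in 19 of 21 G2/M promoters (90.5%), 8 of 11 S-phase promoters (72.7%) and 35.7% of all promoters. CHR and CCAAT letters were found together in 15 G2/M promoters and 1 S-phase promoter. A match of these letters is not a measured binding site. The 150 bases upstream of the start are printed 5′ to 3′ for *TYMS*, which makes thymidylate (chr18:657503-657652, plus strand), *PCNA*, the sliding clamp of DNA polymerase (chr20:5126623-5126772, minus strand), and *RRM2*, a subunit of ribonucleotide reductase (chr2:10122589-10122738, plus strand). They follow for *TOP2A*, which untangles chromosomes (chr17:40417897-40418046, minus strand), *CENPF*, a kinetochore protein (chr1:214603045-214603194, plus strand), and *DIAPH3*, a formin that builds actin filaments (chr13:60163929-60164078, minus strand). *MKI67*, the proliferation marker Ki-67 (chr10:128126424-128126573, minus strand), was added after the motifs were seen, as the highest remaining G2/M member with CHR letters in this stretch. *TOP2A* and *CENPF* had 2 and 1 CHR matches in the window searched, but no full match in the stretch printed. *DIAPH3* had none in the window.
TYMS: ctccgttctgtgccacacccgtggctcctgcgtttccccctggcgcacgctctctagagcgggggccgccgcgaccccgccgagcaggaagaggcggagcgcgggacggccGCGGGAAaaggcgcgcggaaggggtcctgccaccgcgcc
PCNA: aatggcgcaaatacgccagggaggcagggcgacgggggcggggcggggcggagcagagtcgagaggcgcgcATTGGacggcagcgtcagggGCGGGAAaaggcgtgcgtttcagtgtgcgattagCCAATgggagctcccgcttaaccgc
RRM2: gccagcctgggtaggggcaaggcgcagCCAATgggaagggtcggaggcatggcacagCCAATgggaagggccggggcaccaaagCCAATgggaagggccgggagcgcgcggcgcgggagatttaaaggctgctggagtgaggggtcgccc
TOP2A: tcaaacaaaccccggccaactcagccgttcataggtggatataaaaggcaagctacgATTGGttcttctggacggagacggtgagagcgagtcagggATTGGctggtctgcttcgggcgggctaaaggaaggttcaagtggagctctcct
CENPF: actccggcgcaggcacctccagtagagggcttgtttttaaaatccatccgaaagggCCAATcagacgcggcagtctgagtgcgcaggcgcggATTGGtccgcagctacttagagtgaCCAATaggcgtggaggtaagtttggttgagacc
DIAPH3: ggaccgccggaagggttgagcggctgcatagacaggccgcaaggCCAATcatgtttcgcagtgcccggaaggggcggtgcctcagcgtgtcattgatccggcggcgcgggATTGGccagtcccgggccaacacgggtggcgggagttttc
MKI67: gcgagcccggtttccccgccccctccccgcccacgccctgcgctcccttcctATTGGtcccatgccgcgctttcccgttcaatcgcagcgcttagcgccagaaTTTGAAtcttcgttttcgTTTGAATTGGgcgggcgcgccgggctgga

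The libraries held 191152562 unique molecular identifiers (UMIs, 1 per captured transcript) in 16866 barcodes of organoid 32.7 and 233818881 in 19948 barcodes of organoid 33.10, and the cell filter kept 16792 and 19893. Lineages were gated on raw UMIs of 8 genes each, none of them a member, and levels are given in CPM, that is, UMI counts scaled to the same total in every lineage. No gate was passed by 31.2% and 28.5% of kept barcodes, and 13.6% and 15.2% passed gates of different lineages and were set aside. Barcodes that passed the mesenchymal and epicardial gates together were not set aside but counted as epicardial. The other haematopoietic gate counted only for barcodes that passed none of the other gates. No doublet caller was run, so doublets within a lineage remained, and 100 barcode sequences occurred in both libraries. Genes held out of the gates were highest in their own lineage for 6 of 6 endothelial, cardiomyocyte, megakaryocyte, erythroid and granulocyte genes and 5 of 6 mesenchymal and monocyte/macrophage genes. They were so for 2 of 6 epicardial genes (*KRT19* and *ITLN1*, the latter at 0.298 CPM in organoid 33.10) and 2 of 6 other haematopoietic genes, so these gates separated their cells poorly from other lineages. The mesenchymal gate was also poorly separated from the epicardial one, although 7 of 8 of its gate genes were highest in it. *COL1A1* was at 1431 and 1240 CPM in mesenchymal-gated barcodes, beside a mean of 1206 in epicardial-gated ones. *PDGFRA*, a mesenchymal gate gene, was at 163 and 176 beside 190 CPM. Means of *KRT19* and *HAND1* in the mesenchymal gate were 476 and 240 CPM. How far epicardial cells entered that gate was not tested. *VWF*, an endothelial marker, was at 4.88 and 6.17 CPM in endothelial-gated barcodes. The endodermal gate had 16 barcodes in organoid 33.10 and entered no test, median or ranking. Free RNA was not removed, and no lineage is known to be without dividing cells, so the lowest lineage is given in place of a background.

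Both phase groups of the module were highest in the haematopoietic gates other than megakaryocytes, whereas S-phase members were lowest in the cardiomyocyte gate and G2/M members in the endothelial and cardiomyocyte gates. Summed S-phase members were at 269 and 238 CPM in cardiomyocyte-gated barcodes (organoids 32.7 and 33.10), 358 and 393 in endothelial, 326 and 429 in mesenchymal, 413 and 487 in epicardial and 548 and 458 in megakaryocyte-gated barcodes. They were at 759 and 883 CPM in monocyte/macrophage, 940 and 831 in erythroid, 920 and 1043 in other haematopoietic and 1127 and 1177 in granulocyte-gated barcodes. The 4 higher lineages did not overlap with the other 5 in either organoid. Summed G2/M members spanned a wider range, from 400 and 487 CPM in endothelial and 568 and 462 in cardiomyocyte-gated barcodes to 3016 and 3257 in granulocyte-gated barcodes. The stromal and megakaryocyte gates lay between, with 1119 and 1507 CPM in mesenchymal, 1396 and 2072 in epicardial and 1735 and 1290 in megakaryocyte-gated barcodes. Erythroid-gated barcodes were at 3016 and 2353, monocyte/macrophage at 2409 and 2432, and other haematopoietic at 2329 and 2586 CPM. For the G2/M sum, the values of the organoids overlapped between endothelial and cardiomyocyte, among mesenchymal, epicardial and megakaryocyte, and among erythroid, monocyte/macrophage and other haematopoietic gates.

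**Figure D1:**
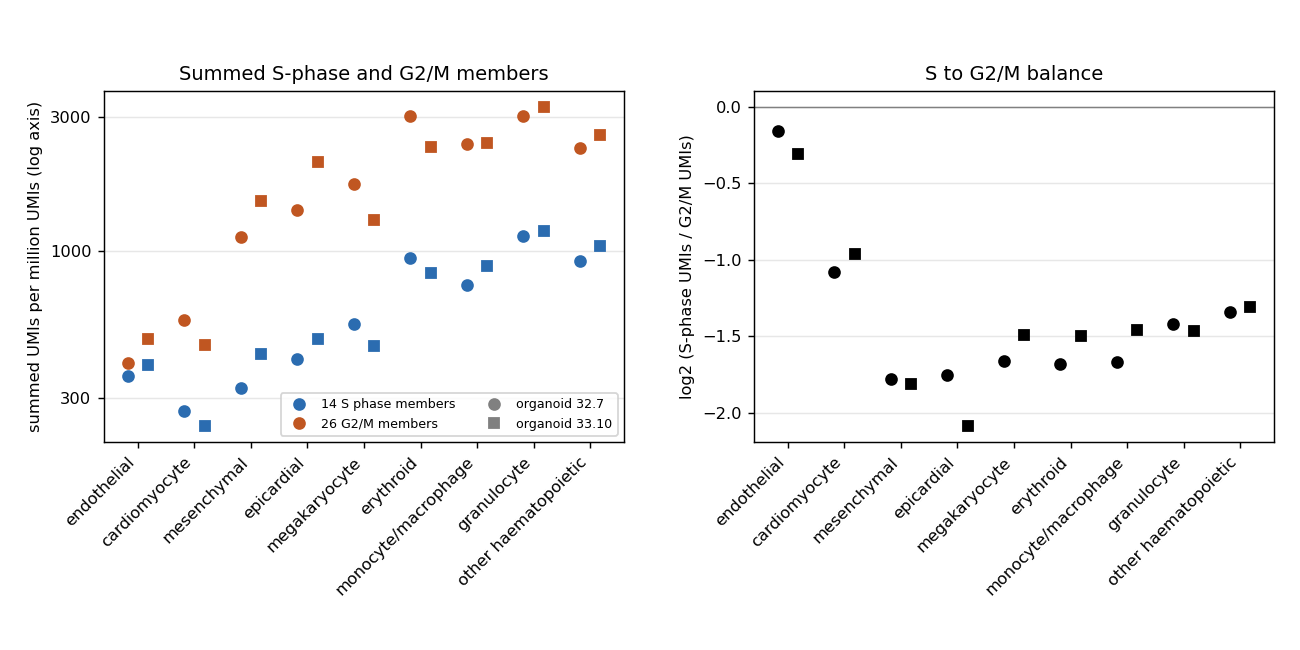
The left panel plots the summed level of the 14 S-phase members (blue) and the 26 G2/M members (orange) in CPM on a log axis, and the right panel the log2 ratio of their UMIs, for 9 lineage gates with circles for organoid 32.7 and squares for organoid 33.10. G2/M levels run from 400 CPM in endothelial-gated to 3257 CPM in granulocyte-gated barcodes, and the endothelial gate is the only one of the 9 whose log2 ratio is above -0.5 in both organoids.

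Barcodes were called cycling on counts thinned to 4000 UMIs each, with at least 6 UMIs in at least 4 S-phase members or at least 5 UMIs in at least 3 G2/M members, *HMGB2* left out. The share was 8.70% (exact 95% binomial interval 7.60 to 9.90) and 10.3% (9.14 to 11.6) in endothelial-gated barcodes and 13.7% (12.1 to 15.6) and 7.54% (6.33 to 8.90) in cardiomyocyte-gated barcodes. These lineages exchanged their order between the organoids. Mesenchymal-gated barcodes were at 15.6% and 24.8%, epicardial at 23.5% and 31.6%, and megakaryocyte at 22.6% and 16.0%. Higher shares were found in monocyte/macrophage (42.3% and 45.6%), other haematopoietic (48.2% and 53.3%) and erythroid-gated barcodes (54.5% and 42.4%). The highest were those of the granulocyte gate, 65.2% of 221 barcodes (58.5 to 71.4) and 77.2% of 57 barcodes (64.2 to 87.3). The mean over organoids was 9.52% ± 1.16 (SD, n = 2) in the endothelial and 71.2% ± 8.51 in the granulocyte gate, and the median over the 9 lineages was 27.5%. Barcodes set aside for passing gates of different lineages were at 28.2% and 29.5%, and those that passed no gate at 20.1% and 19.5%. Of the barcodes without a gate, 3471 of 5233 and 3173 of 5671 had under 4000 UMIs and were left out of these shares. The most frequent combination among those set aside was cardiomyocyte with mesenchymal (389 and 451 barcodes). The lineage shares therefore cover only barcodes that entered a lineage. The shares were not tested between lineages, and intervals cover counting error only.

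Thinning in the call changed the share but hardly the order of lineages. The gates themselves used raw UMIs, so thinning does not bear on which barcodes entered a lineage. Median depth was 5931 and 8308 UMIs in the cardiomyocyte gate and 15842 and 16918.5 in the epicardial gate. The part of gate depth in the shares and their order was not tested. Without thinning the endothelial share was 20.9% and 22.2%, the cardiomyocyte share 18.2% and 14.1%, and the granulocyte share 81.0% and 89.7%, and only these lowest 2 lineages exchanged places by their means. Barcodes under 4000 UMIs were left out of the thinned call, 728 and 403 of the cardiomyocyte and 319 and 731 of the megakaryocyte gate, the most in any lineage. Among the barcodes kept, those called cycling held more UMIs than the others in the 9 lineages (16751 against 12885 in endothelial-gated barcodes of organoid 32.7, medians), except for the cardiomyocyte gate in organoid 32.7, where cycling barcodes had 6892 and the others 9642.5. Near the limits of the call, 5.06% and 5.78% of thinned barcodes held 5 or 6 S-phase UMIs and 4.70% and 4.78% held 4 or 5 G2/M UMIs.

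**Figure D2:**
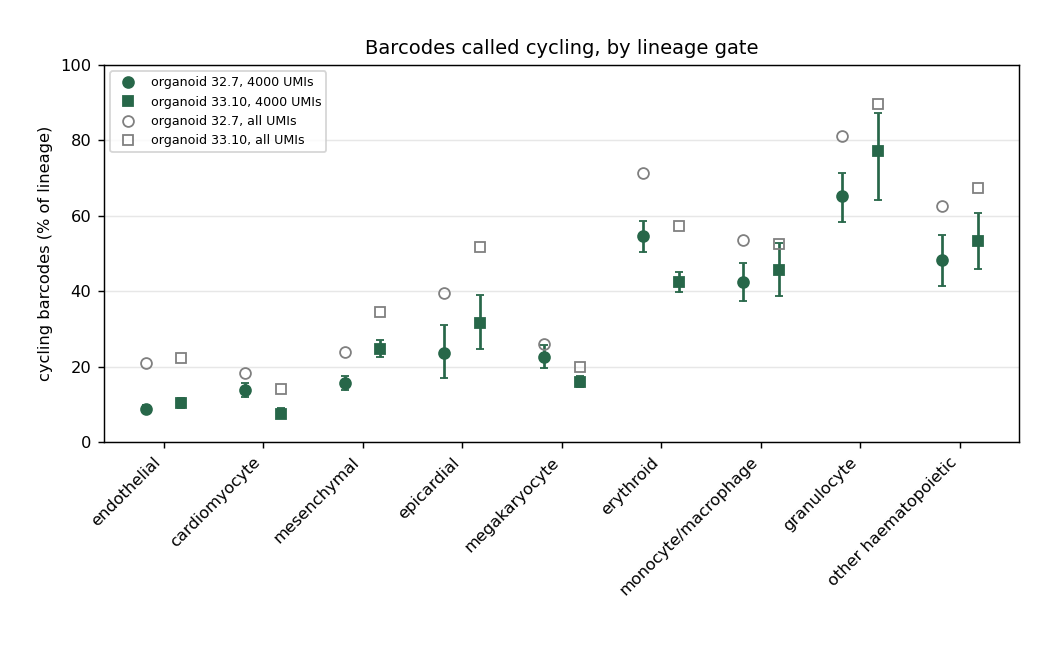
Percentage of barcodes called cycling in each lineage gate, with filled green symbols for counts thinned to 4000 UMIs (bars are exact 95% binomial intervals), open grey symbols for all UMIs, circles for organoid 32.7 and squares for organoid 33.10. Endothelial and cardiomyocyte shares lie between 7.54% and 13.7% after thinning and granulocyte shares between 65.2% and 77.2%.

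The balance of the module set the endothelium apart. The log2 ratio of S-phase to G2/M UMIs was -0.16 and -0.31 in endothelial-gated barcodes (12694 against 14181 UMIs, and 12220 against 15144), -1.08 and -0.96 in cardiomyocyte-gated barcodes, and between -1.31 and -2.09 in the other 7 lineages. The lowest ratios were epicardial (-1.76 and -2.09) and mesenchymal (-1.78 and -1.81). Among endothelial barcodes called cycling, 27.3% and 23.7% passed by the S-phase criterion alone, whereas this share was at most 16.7% in any other lineage and 5.12% and 5.17% in the mesenchymal gate. Conversely, 37.8% and 37.6% of cycling endothelial barcodes passed by G2/M alone, against 70.5% and 71.0% of mesenchymal ones. Part of the endothelial balance was present in barcodes not called cycling, in which S-phase members were at 214 and 228 CPM and G2/M members at 142 and 165 CPM, and no other lineage of the 9 had more S-phase than G2/M in both organoids. In cycling endothelial barcodes S-phase members were at 1566 and 1461 CPM and G2/M members at 2564 and 2581 CPM, and in cycling mesenchymal barcodes at 1053 and 995 and at 4802 and 4306 CPM. The call used these genes, so the levels by call are a description.

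Within the endothelial gate the module differed between barcodes sorted to an arterial and to a venous side. A barcode was sorted by which of an arterial and a venous gene list had more UMIs, with at least 2. This gave 1627 and 1561 arterial and 788 and 861 venous barcodes, and no held-out marker of either side was checked. Barcodes with more UMIs of arterial genes were called cycling in 5.05% (4.02 to 6.24) and 4.70% (3.68 to 5.90) of cases, and those with more UMIs of venous genes in 16.2% (13.6 to 19.0) and 20.5% (17.8 to 23.5). Median depth was similar on both sides, 13140 and 10891 UMIs for arterial and 12102 and 10547 for venous barcodes. G2/M members were at 250 and 266 CPM in arterial and 720 and 889 CPM in venous barcodes, and S-phase members at 271 and 260 against 536 and 629 CPM. The log2 ratio was 0.12 and -0.03 on the arterial and -0.43 and -0.50 on the venous side, so neither side came near the ratios of the stromal or blood lineages. Barcodes that passed both the megakaryocyte and the erythroid gate (89 and 364) were cycling in 37.9% and 33.4% of cases, between the values of the 2 gates alone in both organoids, and doublets of the 2 lineages cannot be told apart from shared progenitors there. Nearly all monocyte/macrophage barcodes held C1Q transcripts, a macrophage mark (420 and 221 barcodes positive, 5 and 2 negative), so no comparison by C1Q was made. *C1QA* and *C1QB* were themselves gate genes of this lineage, so these counts follow in part from the gate.

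Most members followed the order of the sums, and a few did not. The mean level was highest in granulocyte-gated barcodes for 26 of the 40 members and in erythroid-gated barcodes for 8, and it was lowest in endothelial-gated barcodes for 20 of the 26 G2/M members and in cardiomyocyte-gated barcodes for 12 of the 14 S-phase members. The ratio of the highest to the lowest lineage had a median of 8.35 for G2/M members (4.03 to 14.7) and 4.90 for S-phase members (2.79 to 11.7). *PBK*, a mitotic kinase, ran against the rest, with 46.0 and 33.9 CPM in erythroid and 30.3 and 40.8 CPM in epicardial but 9.67 and 17.6 CPM in granulocyte-gated barcodes, near its endothelial level of 8.57 and 11.2 CPM. *UBE2C*, the ubiquitin-conjugating enzyme of the anaphase-promoting complex, was highest in megakaryocyte-gated barcodes at 244 and 147 CPM. It made up 14.1% and 11.4% of all G2/M UMIs there and 2.71% to 5.28% in the other 8 lineages. *UHRF1*, which maintains DNA methylation at the replication fork, was at 4.45 and 4.85 CPM in megakaryocyte-gated and 37.1 and 30.6 CPM in granulocyte-gated barcodes.

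**Figure D3:**
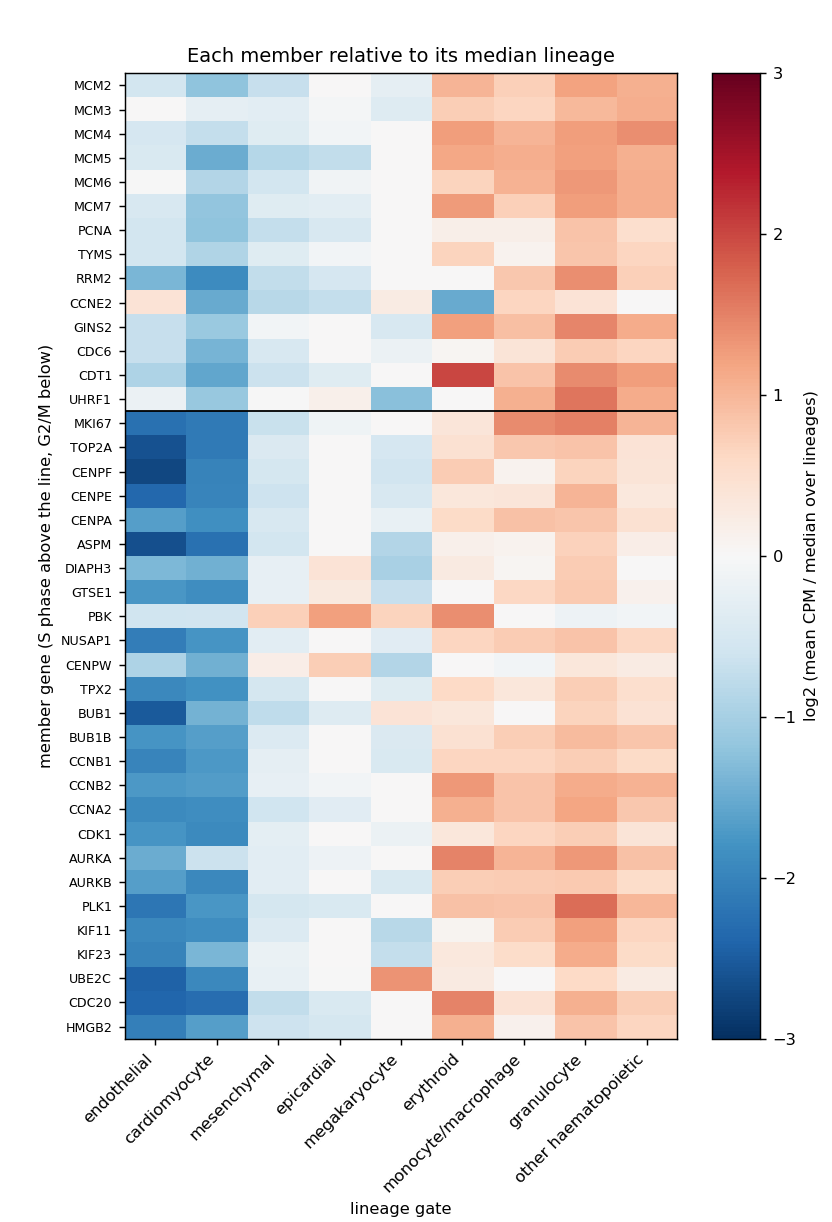
Each cell is the log2 ratio of a member's mean level in 1 lineage gate (CPM, mean of 2 organoids) to its median over the 9 gates, with the 14 S-phase members above the line and the 26 G2/M members below it. The endothelial and cardiomyocyte columns are low for nearly all members, and *CCNE2*, *PBK* and *UBE2C* depart from the pattern of the other rows.

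Erythroid and megakaryocyte cells arise from a shared progenitor, and the first comparison set sums over all their barcodes, cycling or not, against each other. The part of the differing cycling shares in it was not tested. Among cycling barcodes S-phase members were at 1167 and 1158 CPM in erythroid and 1460 and 1485 CPM in megakaryocyte gates. G2/M members were at 4331 and 3947 against 5249 and 5006 CPM. Among the other barcodes S-phase members were at 516 and 473 against 168 and 172 CPM. G2/M members were at 522 and 567 against 233 and 234 CPM in those. Of the 40 members 35 were higher in erythroid-gated barcodes and 2 were lower, at an adjusted p under 0.05 (quasi-likelihood test of edgeR, adjusted after Benjamini and Hochberg for 20406 genes). In this comparison 48.4% of all genes passed, with a median log2 fold change of -0.17 over all genes and 1.23 over the members. *CDT1*, which loads the replicative helicase onto DNA, was at 73.4 and 69.7 CPM in erythroid-gated and 20.6 and 15.2 CPM in megakaryocyte-gated barcodes, a log2 fold change of 2.26 ± 0.19 (SE; adjusted p = 2.43e-07). *GINS2*, part of that helicase, was at 62.0 and 53.1 against 18.7 and 16.7 CPM, 1.96 ± 0.16 on the log2 scale. All 6 MCM helicase subunits rose, by 0.92 (*MCM6*) to 1.55 (*MCM2*) on the log2 scale.

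The G2/M members rose to a like extent, 24 of 26 with a median log2 fold change of 1.21 against 1.39 for the S-phase members. *AURKA*, a spindle pole kinase, was at 124 and 102 against 44 and 36.8 CPM (log2 fold change 1.74 ± 0.16), and *CDC20*, the activator of the anaphase-promoting complex, at 80.0 and 52.7 against 29.0 and 18.2 CPM (1.76 ± 0.28). The groups did not overlap for either gene, but the share of all genes without overlap was not counted. *CCNE2*, the cyclin E2 that starts S phase, went the other way at 4.38 and 5.36 CPM in erythroid-gated and 17.0 and 15.8 CPM in megakaryocyte-gated barcodes (log2 fold change -1.49 ± 0.19, adjusted p = 1.08e-05 by edgeR). *UBE2C* was also lower in erythroid-gated barcodes (110 and 77.3 against 244 and 147 CPM, log2 fold change -0.81 ± 0.26, adjusted p = 0.016 by edgeR), a call that did not hold without barcodes above 3 times the median UMI count of their lineage (adjusted p = 0.158 by edgeR). *RRM2*, *CDC6* and *BUB1* did not pass, with log2 fold changes of 0.25, 0.49 and 0.18. The embryonic globin *HBZ* alone was at 48678 and 39843 CPM in erythroid-gated barcodes. Without TMM scaling the median over all genes moved to -0.42, the members' median to 0.98 and the share of calls that were higher from 44.5% to 29.6%, with 33 members higher and 2 lower.

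Between the endothelial and cardiomyocyte gates, which had the lowest cycling shares, 15 of the 40 members passed edgeR's test, against 55.8% of all genes. In endothelial-gated barcodes 10 of the 14 S-phase members were higher (median log2 fold change 0.64 over the 14), although *GINS2* passed in 5 of 9 alternative settings. Of the 26 G2/M members 5 were lower (median -0.14 over the 26), or 3 without TMM scaling. *CCNE2* was at 18.6 and 18.2 CPM against 4.33 and 5.34 CPM in cardiomyocyte-gated barcodes (log2 fold change 1.91 ± 0.18, adjusted p = 4.95e-07 by edgeR). *MCM5* (17.5 and 20.2 against 10.3 and 8.13 CPM), *UHRF1* (9.08 and 10.6 against 5.41 and 4.69 CPM) and *PCNA* (48.4 and 48.7 against 33.7 and 27.5 CPM) were also higher, with log2 fold changes of 1.01, 0.94 and 0.65. The groups did not overlap for any of these genes. With 2 values per group this adds nothing to the test, and its share over all genes was not counted. On the mitotic side *BUB1*, a spindle checkpoint kinase, was at 6.29 and 9.55 against 17.5 and 16.4 CPM (log2 fold change -1.12 ± 0.21) and *AURKA* at 13.2 and 15.5 against 26.1 and 25.8 CPM (-0.88 ± 0.16). *CENPF*, *KIF23*, a motor of cytokinesis, and *TOP2A* fell by 0.74, 0.66 and 0.51 on the log2 scale, and leaving out barcodes of very high UMI count ended these 3 calls. *MKI67* did not pass, and its sign differed between the organoids (-0.56 and 0.31). *RRM2* passed only with the organoid as a block (adjusted p = 0.0381 by edgeR, against 0.0645 without it). The median over the members was 0.01 beside -0.04 over all genes, and -0.21 and 0.30 in the organoids taken alone.

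**Figure D4:**
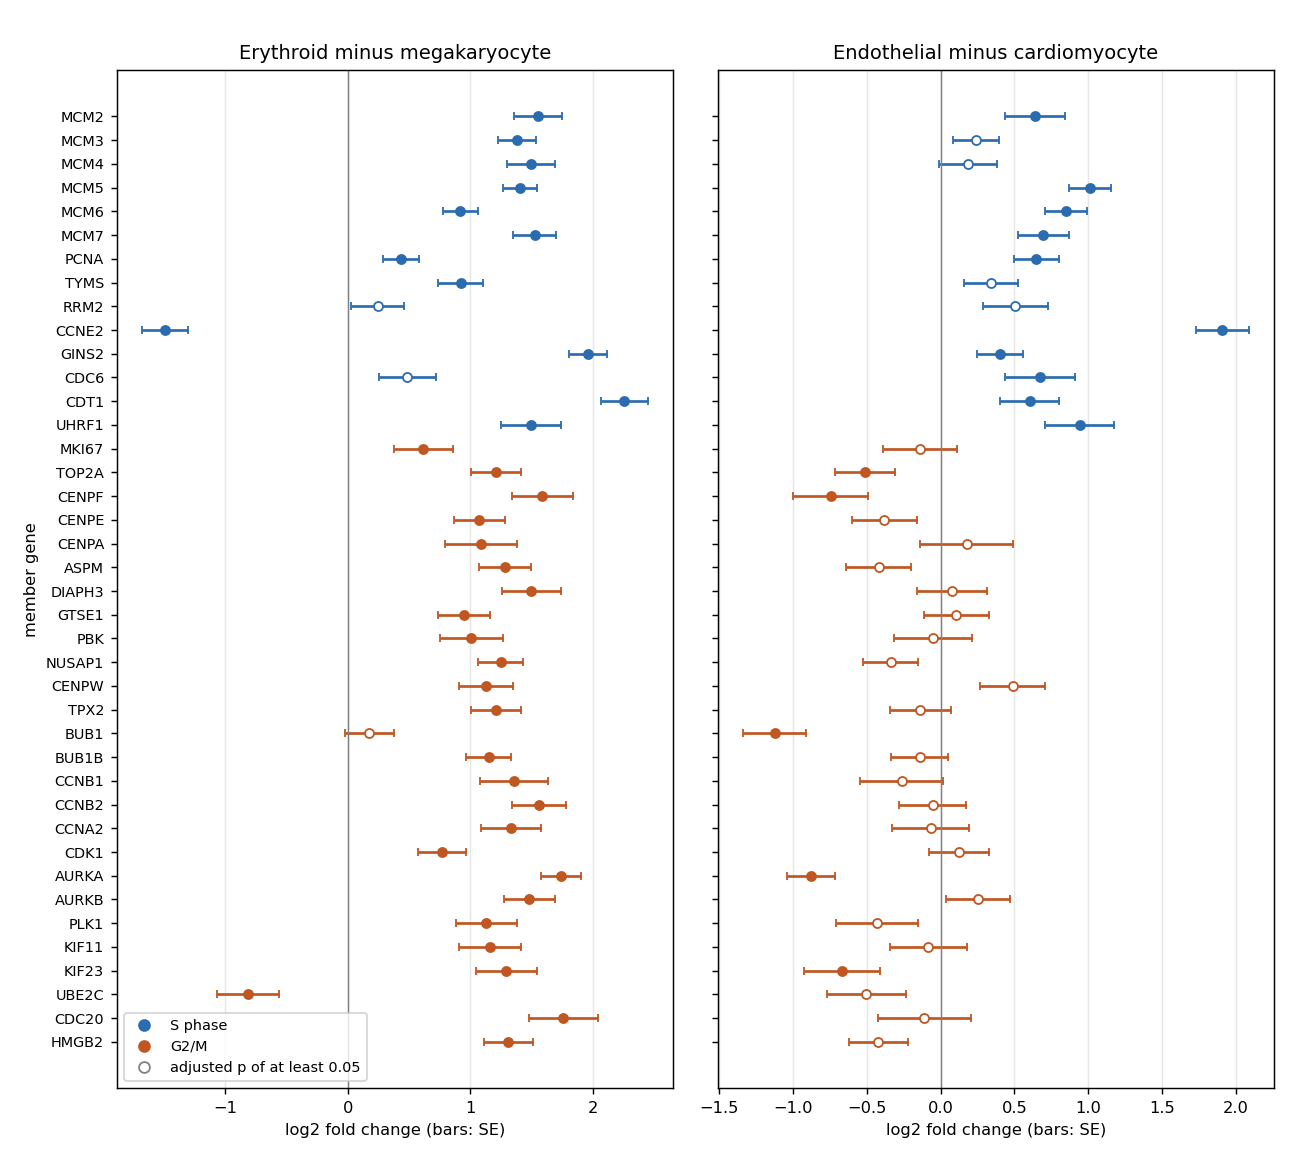
Log2 fold changes of the 40 members (points, bars are standard errors) for erythroid minus megakaryocyte on the left and endothelial minus cardiomyocyte on the right, with S-phase members in blue, G2/M members in orange and open symbols for an adjusted p of at least 0.05. On the left 35 members lie to the right of 0 with filled symbols, and on the right the filled blue symbols lie above 0 and the filled orange ones below it.

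Granulocyte-gated barcodes, which carry the granule genes of precursors, had more of the module than monocyte/macrophage-gated barcodes, but few single members passed. Of the 40 members 8 were higher and none lower in edgeR's test, where 17.7% of all genes passed, so the share of members was close to that of all genes. The members' median log2 fold change was 0.47 beside -0.02 over all genes, with a positive sign in 38 of 40. The share of positive signs over all genes was not counted. The members that passed were *PCNA* (125 and 129 against 77.3 and 81.8 CPM), *TYMS* (193 and 190 against 114 and 114 CPM), *HMGB2*, a chromatin protein of dividing cells (427 and 420 against 276 and 241 CPM), *GINS2*, *MCM7*, *BUB1*, *CENPE* and *DIAPH3*, with log2 fold changes of 0.61 to 0.81. *MKI67* was at 191 and 225 against 188 and 208 CPM and did not pass. With the organoid as a block 11 members passed, which added *RRM2*, *ASPM* and *PLK1* (adjusted p = 0.0272, 0.0459 and 0.0279 by edgeR, against 0.0615, 0.0564 and 0.053 without it). The granulocyte gate held 248 and 58 barcodes, and the count was 4 to 13 over the settings tried.

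No member passed edgeR's test between the mesenchymal and epicardial gates, in which 0.0392% of all genes passed (8 of 20406). At an unadjusted p under 0.05, 4 members and 1696 genes passed, and DESeq2 called 70 genes and no member. The sign was negative for 37 of 40 members, with a median log2 fold change of -0.19 beside 0.06 over all genes. The share of negative signs over all genes was not counted. *DIAPH3* was at 70.5 and 110 CPM in mesenchymal-gated and 104 and 177 CPM in epicardial-gated barcodes (log2 fold change -0.54 ± 0.24, adjusted p = 0.58 by edgeR). Epicardial-gated barcodes were few (149 and 174) and the markers of the 2 gates overlapped, as given above. They included barcodes that also passed the mesenchymal gate, so the 2 groups were not separate by their gate genes.

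Haematopoietic barcodes without a lineage gate were then set against the endothelium, from which blood arises. In these haematopoietic barcodes mean levels were 4952 and 2427 CPM for the granulocyte genes *PRG2* and *CLC*. They were 1048 and 587 CPM for the monocyte/macrophage genes *AIF1* and *TYROBP*. The gate therefore cannot be read as progenitors alone, although the held-out genes *RUNX1* and *GATA2* were highest in it. Of the members 38 were higher and none lower by edgeR's test, against 47.8% of all genes called, with a median log2 fold change of 2.34 beside -0.09 over all genes. G2/M members rose more (median 2.78) than S-phase members (1.58). *MKI67* was at 143 and 155 CPM against 13.3 and 17.8 CPM in endothelial-gated barcodes (log2 fold change 3.42 ± 0.26), *PLK1*, a kinase of mitotic entry, at 36.3 and 30.6 against 3.83 and 3.60 CPM (3.33 ± 0.28), and *CDT1* at 39.6 and 45.5 against 8.29 and 10.5 CPM (2.33 ± 0.20). *MCM3*, at 101 and 112 against 45.1 and 55.4 CPM, rose least among the MCM subunits (1.24 ± 0.16). The exceptions were *CCNE2*, at 12.6 and 15.2 against 18.6 and 18.2 CPM (log2 fold change -0.26, adjusted p = 0.292 by edgeR), and *PBK*, at 12.8 and 15.8 against 8.57 and 11.2 CPM (0.68, adjusted p = 0.0771 by edgeR). All 5 comparisons used the same 2 organoids, and some shared a lineage.

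Barcodes called cycling were next compared with the others of their lineage for genes outside the module, averaged over 8 lineages (the granulocyte gate had 13 barcodes not cycling in organoid 33.10 and was left out). Of 41 further cell cycle genes 31 were higher and 4 lower in cycling barcodes, against 39.7% of 17884 genes tested by edgeR. These genes belong to the same cycle as the members that made the call. A rise among them therefore describes the call and is no separate support for it. The median log2 fold change was 1.80 for the list and -0.10 for all genes. The 8 genes of mitosis and cytokinesis all rose, with a median log2 fold change of 3.54, for example *NDC80*, the microtubule coupler of the kinetochore (4.87 ± 0.11), and *ANLN*, a scaffold of the cleavage furrow (4.02 ± 0.07). The 8 genes of replication and its checkpoint all rose too (median 2.05), among them *CLSPN*, a checkpoint adaptor (2.92 ± 0.08), and *RRM1*, the partner of *RRM2* (2.04 ± 0.05). Of 11 regulators 9 rose, led by the E2F repressors *E2F8* (4.45 ± 0.15) and *E2F7* (4.12 ± 0.17), *E2F2* (4.14 ± 0.21) and the mitotic activators *FOXM1* (4.11 ± 0.09) and *MYBL2* (3.62 ± 0.09). *RB1* and *RBL2*, which hold E2F targets back, had log2 fold changes of 0.15 and 0.13 and did not pass, though *RB1* passed with the organoid as a block (adjusted p = 0.0437 by edgeR, against 0.0567 without it), while their relative *RBL1* rose by 1.80. Without TMM scaling 62.2% rather than 44.4% of all calls were higher, and 34 list genes were higher and 4 lower.

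The cyclins, kinases and inhibitors that control entry into S phase moved in different directions. *CDK2*, *CDK4* and *CCNE1* rose by 0.98, 0.66 and 1.34 on the log2 scale and *CDK6* by 0.22, a call lost with DESeq2 and 2 other settings, while *CCND2* fell by 0.41. Among the inhibitors *CDKN1A* (p21) fell by 1.04 and *CDKN1C* (p57) by 1.01, *CDKN2D* (p19) rose by 0.47, and *CDKN1B* (p27) and *CDKN2A* (p16) did not pass. *CDKN2C* (p18) was at 22.7 and 20.5 CPM in cycling and 0.464 and 1.14 CPM in other megakaryocyte-gated barcodes (67 and 116 against 3 and 21 UMIs), a log2 fold change of 4.40 there. *CDKN2C* was higher in cycling barcodes of the other gates too, at 20.7 and 14.7 against 2.18 and 0 CPM in the monocyte/macrophage gate. Its difference between lineages did not pass (adjusted p = 0.345 by edgeR). *CDKN2B* (p15) was lower on average (-1.20 ± 0.39), with at most 15.9 CPM in any lineage and state, and did not pass without barcodes of very high UMI count. It did not fall in every lineage. In the mesenchymal gate it was at 14.9 and 11.7 CPM in cycling and 10.2 and 10.3 CPM in other barcodes (68 and 70 against 185 and 135 UMIs).

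Within single lineages the fall of *CDKN1A* was largest in megakaryocyte-gated barcodes, where it was at 80.4 and 112 CPM in cycling and 396 and 357 CPM in other barcodes (log2 fold change -2.12 ± 0.28, adjusted p = 5.47e-06 by edgeR). In cardiomyocyte-gated barcodes it was at 63.3 and 83.2 against 85.4 and 58.8 CPM, and the groups overlapped (-0.03 ± 0.29). *CCNE1*, the cyclin E1 partner of *CDK2*, was at 16.7 and 15.5 against 1.46 and 1.36 CPM in endothelial-gated barcodes (3.39 ± 0.30) and at 28.2 and 23.9 against 23.3 and 13.4 CPM in mesenchymal-gated barcodes (0.46 ± 0.24), where cycling and other barcodes were close. The share of all genes called was 12.3% in the endothelial, 11.1% in the cardiomyocyte, 8.22% in the mesenchymal, 4.76% in the epicardial and 25.6% in the megakaryocyte gate. It was 15.3% in the erythroid, 9.46% in the monocyte/macrophage and 11% in the other haematopoietic gate. Beside these shares, 26 to 31 of the 41 listed genes passed in each of the 8 lineages. The list's median log2 fold change was lowest in erythroid (1.17) and other haematopoietic (1.33) and highest in mesenchymal-gated barcodes (2.28). In the erythroid gate barcodes not called cycling still held S-phase members at 516 and 473 CPM and G2/M members at 522 and 567 CPM, above those of the 5 endothelial, cardiac, stromal and megakaryocyte gates. The difference between lineages passed for 27 of the 41 genes and for 10.2% of all genes (edgeR, F test over 8 lineages).

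**Figure D5:**
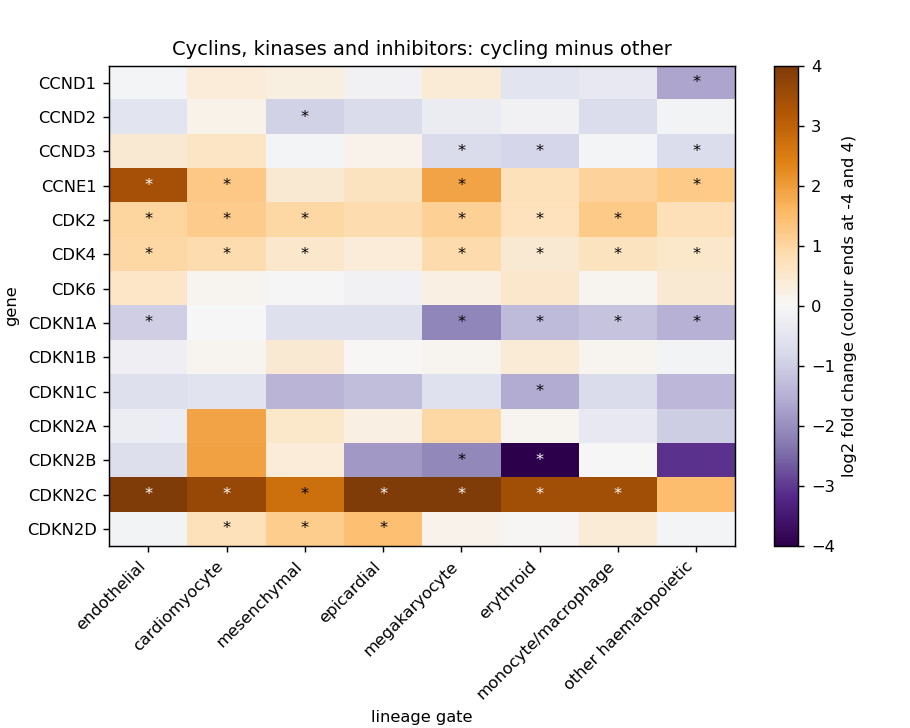
Log2 fold change between cycling and other barcodes for 7 cyclins and kinases and 7 CDK inhibitors (rows) in 8 lineage gates (columns), as colours that end at -4 and 4, with a star for an adjusted p under 0.05. *CCNE1* is highest in the endothelial column (3.39), and *CDKN1A* is lowest in the megakaryocyte column (-2.12) and near 0 in the cardiomyocyte column. *CDKN2B* rests on few UMIs in cycling barcodes outside the mesenchymal column.

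Marker genes held out of the gates were compared in the same way to see whether cycling barcodes carried less of their lineage's programme. Of 46 marker genes tested in their own lineage 40 had a negative sign, 12 were lower and 1 was higher, and with the organoid as a block 19 were lower. The share of negative signs over all genes was not counted. Some of these markers were not highest in their own gate, so their levels say little about its programme. They were *TBX20*, *PODXL*, *TNNT1* and *HAND1* (epicardial), *ITGA4*, *CD44*, *TAL1* and *KIT* (other haematopoietic), *LYZ* (monocyte/macrophage) and *OGN* (mesenchymal). Of all genes 4.76% to 25.6% passed per lineage, the highest share being that of the megakaryocyte gate. The megakaryocyte gate held 5 of the 12, namely the collagen receptor *GP6* (log2 fold change -1.36), *SELP* (P-selectin, -1.13), *TMEM40* (-1.84), the thrombin receptor *F2RL3* (-1.14) and the transcription factor *NFE2* (-1.21). Cycling cardiomyocyte-gated barcodes had less of the contractile genes *MYL3* (-0.90) and *TNNI1* (-0.88), and cycling endothelial-gated barcodes less *PECAM1* (-1.01) and *MMRN2* (-0.78). *KRT19* (-1.57) and *TNNT1* (-0.98) were lower in the epicardial and *CD68* (-1.34) in the monocyte/macrophage gate. *TNNT1* did not pass with the block (adjusted p = 0.0602 by edgeR, against 0.0491 without it), whereas *PODXL* did (0.0367, against 0.115). Neither was highest in the epicardial gate, and *PODXL* had a mean of 111 CPM in the endothelial gate. In contrast, *OGN*, a matrix proteoglycan, was higher in the mesenchymal gate at 8.09 and 7.68 against 3.31 and 2.52 CPM (1.39). These levels rest on 37 and 46 against 60 and 33 UMIs. *OGN* did not mark this gate, with 4.32 and 4.14 CPM over all its barcodes and a mean of 11.5 CPM in the other haematopoietic gate. No erythroid marker passed, with a median log2 fold change of -0.64, and the block added 1. *MYL3*, *GP6*, *SELP*, *TMEM40* and *NFE2* passed in 11 of 11 alternative settings, and the other 7 genes in 6 to 10. The median over all genes was -0.10 to -0.02 in the 8 lineages. The gates required a fixed number of raw UMIs, so a deeper barcode could pass with a smaller fraction of marker transcripts. Cycling barcodes were deeper, except in the cardiomyocyte gate of organoid 32.7. In the megakaryocyte gate their medians were 15481 and 13458 UMIs against 9422.5 and 8592 in the others. The part of depth in the lower marker levels was not tested.

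The call sorted barcodes on cycle genes and so favoured other genes of the cycle. Over the whole table, the largest rises among genes of at least 20 CPM in 1 state were those of other mitotic genes. They were *NEK2*, a centrosome kinase (log2 fold change 5.63 ± 0.16), *CDCA2* (5.16 ± 0.11), the kinesins *KIF18B* (5.11 ± 0.13) and *KIFC1* (5.03 ± 0.10), and *NDC80*, each higher in all 8 lineages. Large falls were those of *CHI3L1*, a secreted glycoprotein (-2.37 ± 0.84, lower in 7 of 8 lineages), the stress-induced *GDF15* (-1.91 ± 0.30, 8 of 8), the carboxypeptidase M gene (-1.69 ± 0.61, 6 of 8) and *LAMA2*, a laminin chain (-1.68 ± 0.21, 8 of 8). *GDF15* was at 18.2 CPM in cycling and 53.6 CPM in other barcodes, as the mean over lineages and organoids.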

How the data were processed

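Single cells of 2 day 14 organoids were profiled by 10x 3′ sequencing. The authors deposited raw counts of UMIs per gene and barcode, made with Cell Ranger 7.0.0 against GRCh38, intronic reads included. Barcodes with 50 to 11000 genes and under 30% mitochondrial UMIs, the study's filter, were kept. A lineage gate required at least 2 UMIs in each of at least 3 of 8 gate genes. Barcodes were thinned to 4000 UMIs (seeded) before cycling calls. Counts were summed per lineage (and cycling state) and organoid and tested with edgeR 4.0.16 (R 4.3.3; quasi-likelihood, TMM, filterByExpr, Benjamini-Hochberg over all genes tested, adjusted p threshold 0.05); lineages with under 20 barcodes were left out, as was the endodermal gate. The 40 members were left out of the cycling test. Standard errors of edgeR fits were derived from the test, as the absolute log2 fold change divided by the square root of its F statistic. Scripts were checked on simulated data. Alternatives were DESeq2 1.42.0, no TMM, no low-count filter, 10% of the library profile removed from each sum, other gates, no cell filter, barcodes of high UMI count left out, other depths and minimums of the call, each organoid alone, and the organoid as a block. All lineages come from the same 2 organoids, so samples pair by design; the mean correlation of their deviations was 0.133 for the lineage sums and 0.118 for the cycling sums. P-values describe the spread between 2 organoids, shared over all lineages of a fit. The main fit was unpaired. Neither it nor the organoid block paired the cycling and other sums of the same lineage and organoid. Depth was 191152562 and 233818881 UMIs.

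Named genes were the 40 members, the listed pathway, gate and held-out marker genes, and the 5 largest changes in each direction past the threshold with at least 20 CPM in 1 state and 1 direction in both organoids. Of the latter, 1 gene is not reported here. The members and lists were chosen with earlier results of these data known. Values used Python 3.11.15 with numpy 2.4.6, scipy 1.17.1, pandas 2.3.3 and matplotlib 3.10.9.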

Additional observations from a re-analysis of the deposited data

Results flagged for a closer look

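For 5 of 14 cyclins, kinases and CDK inhibitors, the difference between cycling and other barcodes itself differed between the 8 lineages (edgeR, F test, adjusted over all genes). In the same test 10.2% of all genes passed. *CCNE1* had an adjusted p of 0.000941 by edgeR, with log2 fold changes from 0.46 in the mesenchymal to 3.39 in the endothelial gate. *CCND3*, the D-type cyclin highest in megakaryocyte-gated barcodes (490 and 449 CPM in cycling, 716 and 676 CPM in others), had an adjusted p of 0.00211 by edgeR, with a log2 fold change of -0.87 in the erythroid, -0.72 in the megakaryocyte and 0.59 in the cardiomyocyte gate. *CDKN2D* had an adjusted p of 0.00506 by edgeR and rose in the epicardial (1.44), mesenchymal (1.19) and cardiomyocyte (0.74) gates, with -0.11 in the endothelial gate. *CDKN1A* had an adjusted p of 0.0280 by edgeR, with log2 fold changes from -2.12 in the megakaryocyte to -0.03 in the cardiomyocyte gate. *CDKN2B* had an adjusted p of 0.0420 by edgeR, but its erythroid value rests on 1 and 0 UMIs in cycling against 1 and 15 UMIs in other barcodes.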

How the results depend on the processing

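The count of members past the threshold stayed within 35 to 38 for erythroid minus megakaryocyte, 12 to 19 for endothelial minus cardiomyocyte, 38 to 39 for other haematopoietic minus endothelial and 0 for mesenchymal minus epicardial under the alternatives run, and that of pathway genes in the cycling comparison within 32 to 38. For granulocyte minus monocyte/macrophage the count of 8 became 5 without TMM, 13 without the low-count filter, 4 with 10% of the library profile removed and 5 without barcodes of high UMI count. The median cycling share of 27.5% became 37.6% with the stricter gate and 45.7% without thinning, and was 23.5% to 31.6% in single organoids. The median log2 ratio of S-phase to G2/M UMIs of -1.56 became -1.38 without barcodes of high UMI count and -1.30 without *HMGB2*, and was -1.66 to -1.47 in single organoids. The cause of these shifts was not tested. The endothelial log2 ratio was 0.06 with 10% of the library profile removed. Over single genes, 2440 values were counted as the same, 43 gained and 34 lost the call. The 2440 include 133 values for each organoid alone. Those had 1 value per group and no p-value, so they had no side of the threshold to keep. Values that did not pass could change sign. *CENPA* in granulocyte minus monocyte/macrophage, for example, had a log2 fold change of 0.0015 in the main fit and -0.022 with the organoid as a block. With the organoid as a replicate block, mesenchymal minus epicardial had 114 genes called rather than 8 (70 with DESeq2), and the pairing changed no other call of a member or pathway gene than those given for *RRM2*, *ASPM*, *PLK1* and *RB1*. The epicardial gate held 149 and 174 barcodes and the granulocyte gate 248 and 58, and the part of depth in the number of calls was not tested.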
